A study of Homo sapiens with 6 samples.

Results

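The BEX family of genes on the X chromosome, BEX1 to BEX5, was examined in LNCaP cells transfected with miR-331-3p or with a control microRNA. All 5 genes were found among the 18665 genes named on the array, through 9 of its 48802 probes, by current gene symbol or an older name such as NGFRAP1 for BEX3 and BEXL1 for BEX4. The family was chosen by its measured log2 differences between the labelled groups, in which its members shifted together, so that difference is described here without a test. At least 1 probe for each of BEX1, BEX2, BEX3 and BEX4 was brighter in all 3 arrays labelled miR-331-3p than in any of the 3 labelled miR-NC, by 1.57 to 2.70 fold for the brightest probe of each gene, while the probe for BEX5 lay close to the array background in every array. Under the deposited labels the direction is thus the reverse of the one the paper gives. For this family that direction comes from the paper's supplementary list of down regulated genes, as its main text names no BEX gene. An exchange of labels would turn the sign of every difference given below.

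LNCaP is an androgen-sensitive human prostate cancer line that grew from a lymph node metastasis. Cells were transfected for 24 h with 30 nM of a microRNA precursor with a Lipofectamine reagent, and total RNA was profiled on Illumina Human-6 v3 beadchips, on which short probes attached to beads capture labelled transcripts. The groups were 3 arrays labelled miR-NC, which received a negative control precursor, and 3 arrays labelled miR-331-3p, which received the precursor of that microRNA. Replicates carry the letters A, B and C, no source ties a letter to a separate culture, and p-values therefore measure only the spread between these arrays. Each value is a signal on the log2 scale after variance stabilization and quantile normalization, so the fold of a dim probe may be understated. Levels are compared between arrays for 1 probe and never between probes, except that marker levels are also summed over probes for each array.

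BEX proteins are small and largely unstructured, are found in placental mammals, and are best known from neurons and the endocrine system. BEX3, first named NADE, binds the intracellular part of the p75 neurotrophin receptor, and BEX1 was tied to the same receptor in rat cells. Members of the family also bind the substrate-recognition subunit FEM1B of a CUL2 ubiquitin ligase and so hold it back from its substrate FNIP1, and gains or losses of BEX1, BEX2 and BEX4 are known from several cancers.

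The agent itself is shown first, as its mature RNA in RefSeq (GRCh38.p14, chr12:95308480-95308500, plus strand), with the seed, bases 2 to 8, in capitals. Matches to the seed were not sought in BEX transcripts, as no transcript sequence was used here.
miR-331-3p: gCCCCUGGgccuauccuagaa

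Promoter sequence is shown next, since it was not used to choose the family. RefSeq windows of GRCh38.p14 that run from 250 bases before to 50 bases after a transcript start were read for the 5 genes, which have 9 such windows. The E-box hexamer CACGTG reads the same on both strands and is bound by many basic helix-loop-helix proteins. It was present in 5 of the 9 windows, those of BEX1, BEX2, BEX4 and 1 of the starts of BEX3. Over all 35116 windows in the table the share was 7.26%. The windows of BEX4 overlap and share 1 match, and some BEX promoters resemble each other, so these are not 5 separate occurrences. The excerpts below show CACGTG in capitals with 24 bases to each side, 5′ to 3′ on the strand of the gene. They were chosen after the windows had been read, and a match describes letters only. The excerpt of BEX5, which has no CACGTG in its windows, marks the hexamer ACGTGA instead. This hexamer overlaps CACGTG by 5 bases wherever the E-box is followed by an A. It was found on either strand in 7 of the 9 windows and in all 5 genes, and occurs in 7.22% of all windows. The windows of BEX5 also overlap and share 1 match, as those of BEX4 do.
BEX1 (chrX:103064189-103064242, minus strand): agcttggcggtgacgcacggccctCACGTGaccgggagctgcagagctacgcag
BEX3 (chrX:103376467-103376520, plus strand): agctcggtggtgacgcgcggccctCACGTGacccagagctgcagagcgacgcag
BEX2 (chrX:103310980-103311033, minus strand): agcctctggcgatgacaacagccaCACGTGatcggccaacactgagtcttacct
BEX4 (chrX:103215065-103215118, plus strand): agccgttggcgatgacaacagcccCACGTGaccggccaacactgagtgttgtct
BEX5 (chrX:102155999-102156052, minus strand): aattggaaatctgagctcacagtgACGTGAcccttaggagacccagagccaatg

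By sequence the promoters fell into a pair BEX2 and BEX4, whose closest windows were 84.3% identical, and a pair BEX1 and BEX3, at 73.8%, while each of the other 8 pairs of genes lay between 52.1% and 53.6%. The E-box began 47 bases before the start in both BEX1 and BEX3, and 19 bases before it in BEX2 and in the second window of BEX4. The GC box GGGCGG, sought on both strands, was in 6 of 9 windows (45.0% of all windows), CCAAT was in 5 (34.6%), and TATAAA was in 0 (11.5%). Overlapping windows share matches here too, for the GC box in BEX4 and for CCAAT in BEX3 and BEX5. The BEX windows were GC-rich, from 54.3% to 72.7% G and C.

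The 6 arrays were close to one another. Signals ran from 6.52 to 13.94, and any pair of arrays correlated at 0.988 to 0.996. Array medians differed only in the fifth digit, which quantile normalization fixes in advance. A mean of 7 or more over the 6 arrays was the minimum for testing and kept 16752 probes. With the label miR-331-3p, 720 of these were higher (4.30%) and 613 were lower (3.66%) at a Benjamini-Hochberg adjusted p under 0.05 from limma, 7.96% in all. An unadjusted p under 0.05 was reached by 3695 of them, 22.1%, and the median difference over the 16752 was -0.0028. All 8 prostate luminal markers with a probe reached the minimum, among them KLK3, FOLH1 and HOXB13, and 2 of their 12 tested probes were higher, TMPRSS2 by 0.53 (adjusted p = 0.0023 from limma) and KLK2 by 0.33 (adjusted p = 0.015). The median difference of the 12 probes was 0.031 and 9 of them lay above 0, while KLK3 differed by -0.23 (adjusted p = 0.16 from limma). With Benjamini-Hochberg adjustment, which the paper's methods do not mention, the methods' t-test ended the call of TMPRSS2 (adjusted p = 0.073). The same adjustment applies wherever a call is lost with that test below. Leaving out miR-NC replicate A or B ended the call of KLK2 (adjusted p = 0.058 and 0.067 from limma). Of 11 neuronal and neuroendocrine markers 5 reached the minimum, TUBB3 (mean 9.42), ENO2 (8.56), STMN2 (7.28), NCAM1 (7.04) and INSM1 (7.03). The other 6 stayed under it, among them CHGA and SYP at means of 6.87 and 6.86. INSM1 averaged 6.95 in miR-NC and 7.12 in miR-331-3p, and the NCAM1 probe given here 6.99 and 7.09. Both thus reached the minimum only through the arrays labelled miR-331-3p. Of 9 basal, stromal, endothelial and blood markers 6 stayed under the minimum, KRT5 and PTPRC included. CD68 (mean 8.03), COL1A1 (7.24) and PECAM1 (7.10) reached it.

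Of the 9 BEX probes, 6 probes for 4 genes reached the minimum. On all 6 the groups did not overlap and the arrays labelled miR-331-3p were brighter, and on the other 3 probes, all under the minimum, the groups overlapped. Among all tested probes 13.4% were without overlap in that direction and 13.3% in the other, and among all probes on the array 8.08% were without overlap in that direction. Since the same contrast served to pick the family, nothing is read from these shares. Whether more cells expressed a BEX gene or each cell held more of its RNA cannot be told apart in these bulk samples.

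**Figure D1:**
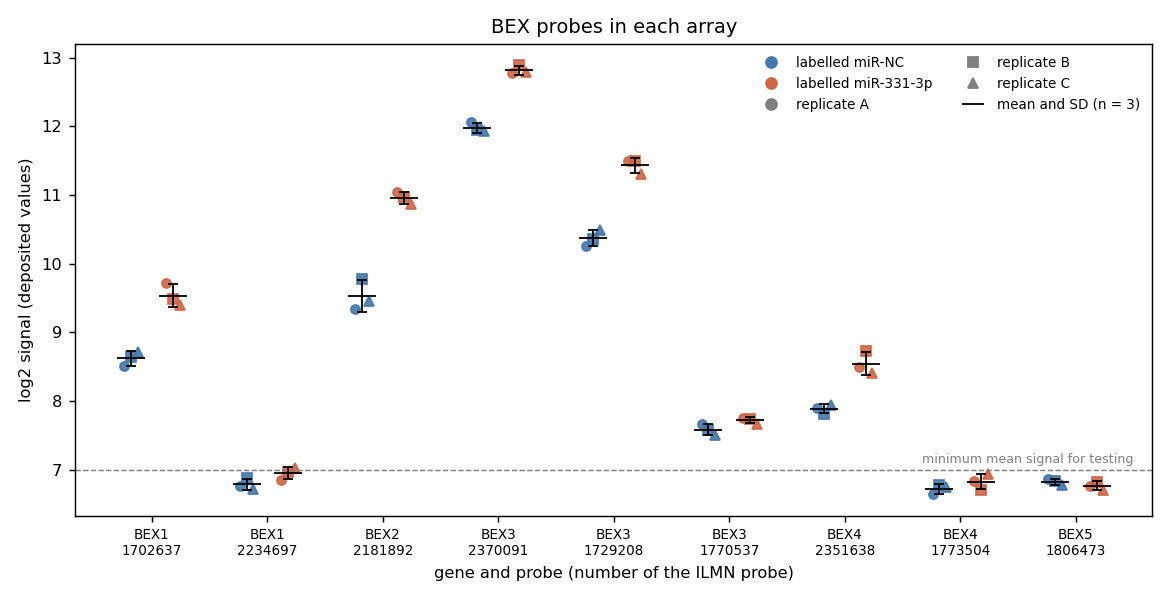
Deposited log2 signal (vertical axis) of the 9 BEX probes in each of the 6 arrays, blue for arrays labelled miR-NC and orange for arrays labelled miR-331-3p, with marker shapes for replicates A to C and bars for the mean and SD (n = 3). The groups are apart on 5 probes by 0.45 to 1.09, barely apart on 1 probe of BEX3, and overlap on the 3 probes under the dashed minimum of 7.

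BEX3, the p75 receptor partner, was read by 3 probes. On probe ILMN_2370091 the log2 signal was 12.06, 11.95 and 11.93 in miR-NC replicates A, B and C and 12.77, 12.89 and 12.79 in miR-331-3p replicates A, B and C. The means were 11.98 ± 0.070 and 12.82 ± 0.062 (SD, n = 3), a difference of 0.84 or 1.79 fold, and every array labelled miR-331-3p stood at least 0.71 above every array labelled miR-NC. On probe ILMN_1729208 the signals were 10.26, 10.36 and 10.50 in miR-NC and 11.50, 11.50 and 11.30 in miR-331-3p. This was the larger of the BEX3 differences, 1.06 or 2.08 fold, between means of 10.37 ± 0.12 and 11.43 ± 0.11 (SD, n = 3), again with a clear gap, of 0.80. The third probe, ILMN_1770537, read 7.66, 7.58 and 7.503 in miR-NC and 7.75, 7.74 and 7.67 in miR-331-3p, a difference of only 0.14 or 1.10 fold. The lowest miR-331-3p array was above the highest miR-NC array by 0.0055 there, far less than the SD of 0.080 within miR-NC, so the probes of BEX3 gave differences of unlike size. The annotation assigns the first of these probes to another BEX3 transcript than the second and the third, and probe sequences were not analysed here.

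BEX1, named as a link from the p75 receptor to the cell cycle in rat cells, was read by a bright and a dim probe. The bright one, ILMN_1702637, gave 8.50, 8.64 and 8.72 in miR-NC replicates A, B and C and 9.72, 9.48 and 9.40 in miR-331-3p replicates A, B and C. The means of 8.62 ± 0.11 and 9.54 ± 0.17 (SD, n = 3) differed by 0.92 or 1.89 fold, with a gap of 0.69 between the groups. Replicate A was the lowest of the miR-NC arrays and the highest of the miR-331-3p arrays on this probe. The second probe, ILMN_2234697, stayed below the minimum, at 6.76, 6.87 and 6.73 in miR-NC and 6.86, 6.96 and 7.02 in miR-331-3p, and its groups overlapped with a difference of 0.16.

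BEX2, a regulator of apoptosis and the cell cycle in breast cancer cells, showed the largest difference of the family on its single probe, ILMN_2181892. Its log2 signal was 9.34, 9.78 and 9.46 in miR-NC replicates A, B and C and 11.04, 10.96 and 10.87 in miR-331-3p replicates A, B and C. The means were 9.53 ± 0.23 and 10.96 ± 0.084 (SD, n = 3), and replicate B was the highest of the miR-NC arrays. The difference was 1.43 or 2.70 fold, the eighth largest increase of all tested probes, and it ran from 1.34 to 1.56 when each array was left out in turn. RRBP1 had the largest difference of all tested probes, 2.01.

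BEX4, which binds tubulin and the deacetylase SIRT2, had the smallest difference among the 4 genes on its brighter probe, ILMN_2351638. Signals there were 7.90, 7.82 and 7.95 in miR-NC replicates A, B and C and 8.50, 8.73 and 8.40 in miR-331-3p replicates A, B and C. The means were 7.89 ± 0.066 and 8.54 ± 0.17 (SD, n = 3), which differed by 0.65 or 1.57 fold with a gap of 0.45. The dim probe ILMN_1773504 read 6.64, 6.78 and 6.74 in miR-NC and 6.83, 6.71 and 6.93 in miR-331-3p, where replicate B of miR-331-3p fell among the miR-NC arrays and the difference was 0.10.

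BEX5, a less studied member, had only the probe ILMN_1806473, at 6.86, 6.84 and 6.78 in miR-NC and 6.77, 6.83 and 6.70 in miR-331-3p. The groups overlapped and the means differed by -0.060, less than the SD of 0.065 within miR-331-3p. A level this near the array median of 6.87 does not show whether BEX5 was transcribed.

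**Figure D2:**
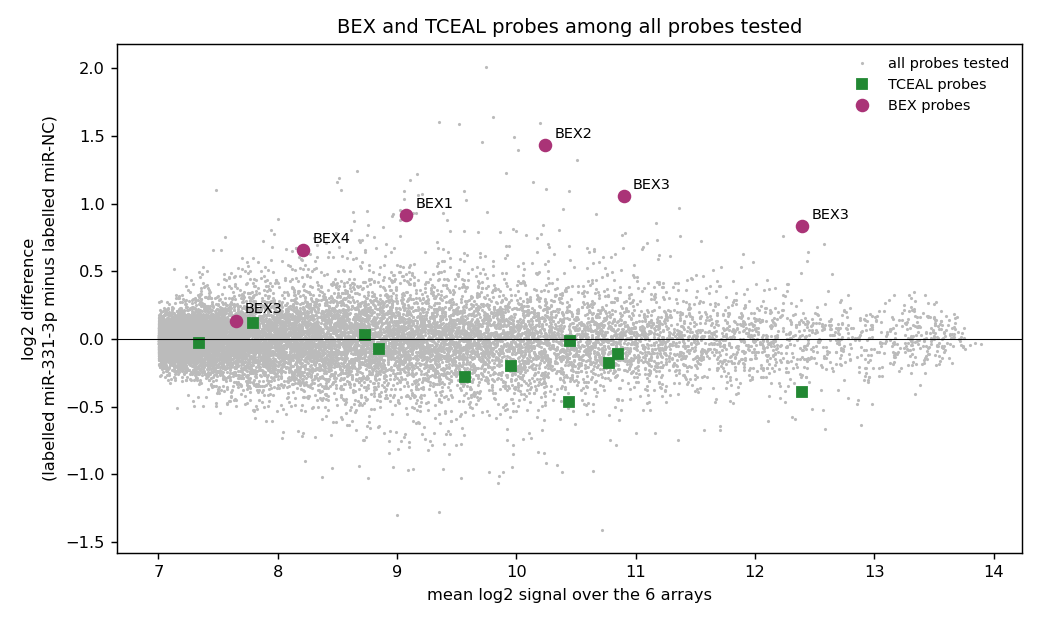
Log2 difference between the labelled groups (vertical axis) against mean log2 signal over the 6 arrays (horizontal axis) for the 16752 tested probes, in grey, with the 6 tested BEX probes as purple circles and the 11 tested TCEAL probes as green squares. The BEX probes run from 0.14 to 1.43 and the TCEAL probes from -0.47 to 0.12.

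When each array was left out in turn, the differences ran from 0.82 to 0.98 for the bright BEX1 probe, 0.80 to 0.88 and 1.003 to 1.12 for the bright BEX3 probes, and 0.56 to 0.73 for the brighter BEX4 probe. The third BEX3 probe ran from 0.097 to 0.18, and the probes under the minimum from 0.12 to 0.21 for BEX1, 0.048 to 0.16 for BEX4 and -0.091 to -0.026 for BEX5.

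Variation of the BEX probes within the groups was also described. The deviation of each array from the mean of its own group leaves out the contrast that picked the family. Of the 15 pairs among the 6 tested probes, 8 had deviations that correlated above 0 over the 6 arrays and the median r was 0.043. It was highest, 0.78, between BEX1 and probe ILMN_1729208 of BEX3, and lowest, -0.64, between BEX1 and probe ILMN_2370091 of the same gene. Pairs of BEX3 probes, which read the same gene, correlated at -0.31, 0.64 and -0.29. Deviations that differ so within 1 gene cannot show whether the family moves together. The points share arrays and their normalization, and these few values are given as a description.

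Genes with a pattern like that of the family over the 6 arrays, by Pearson correlation with the mean of the 6 tested BEX probes after each was centred, were FTL (r = 0.9998), the light chain of the iron store ferritin, OAS1 (0.999), an interferon-induced enzyme of antiviral defence, GDF11 (0.998), a ligand of the TGF-beta family, ADCK2 (0.998), a mitochondrial kinase-like protein, and MMADHC (0.996), which routes vitamin B12 inside the cell. Their log2 differences were 0.70 for FTL, 0.22 for OAS1, 0.67 for GDF11, 0.58 for ADCK2 and 0.77 for MMADHC. Such a correlation is carried mostly by the step between the groups, and 270 of the 13514 named probes compared had r above 0.95.

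The TCEAL genes, relatives of a transcription elongation factor that lie interleaved with the BEX genes, were compared as the nearest family. Of 9 genes, 5 had a probe at the minimum, 11 probes in all, of which 0 were higher and 1 was lower (4.30% and 3.66% over all tested probes). An unadjusted p under 0.05 was reached by 5 of the 11 (22.1% over all). Their median difference was -0.11, against -0.0028 over all tested probes. The bright probe of TCEAL4 read 12.49, 12.71 and 12.57 in miR-NC and 12.20, 12.24 and 12.16 in miR-331-3p replicates A, B and C. It was lower by 0.39 (log2 difference -0.39, standard error 0.080, adjusted p = 0.013 from limma), a call lost without miR-NC replicate B (adjusted p = 0.064) or C (0.0502) and with the methods' t-test (0.11), with a range of 0.0066 to 0.11 over the alternatives. The other TCEAL4 probe differed by -0.032 (adjusted p = 0.85 from limma). The TCEAL8 probes differed by -0.47, -0.28 and -0.011 with adjusted p of 0.054, 0.16 and 0.96 from limma, and those of TCEAL3, TCEAL9 and TCEAL1 by -0.20 to 0.12 without passing.

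TCEAL promoters held the same hexamer as those of BEX1 to BEX4. CACGTG was in 7 of 9 TCEAL windows and in 7 of the 8 TCEAL genes in the table, TCEAL9 being the exception. Those of TCEAL4 and TCEAL8 are printed with the E-box in capitals, as the TCEAL genes with the lowest differences.
TCEAL4 (chrX:103585481-103585534, plus strand): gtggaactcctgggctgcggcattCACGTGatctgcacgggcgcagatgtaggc
TCEAL8 (chrX:103255157-103255210, minus strand): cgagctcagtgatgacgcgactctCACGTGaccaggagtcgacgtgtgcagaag

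**Figure D3:**
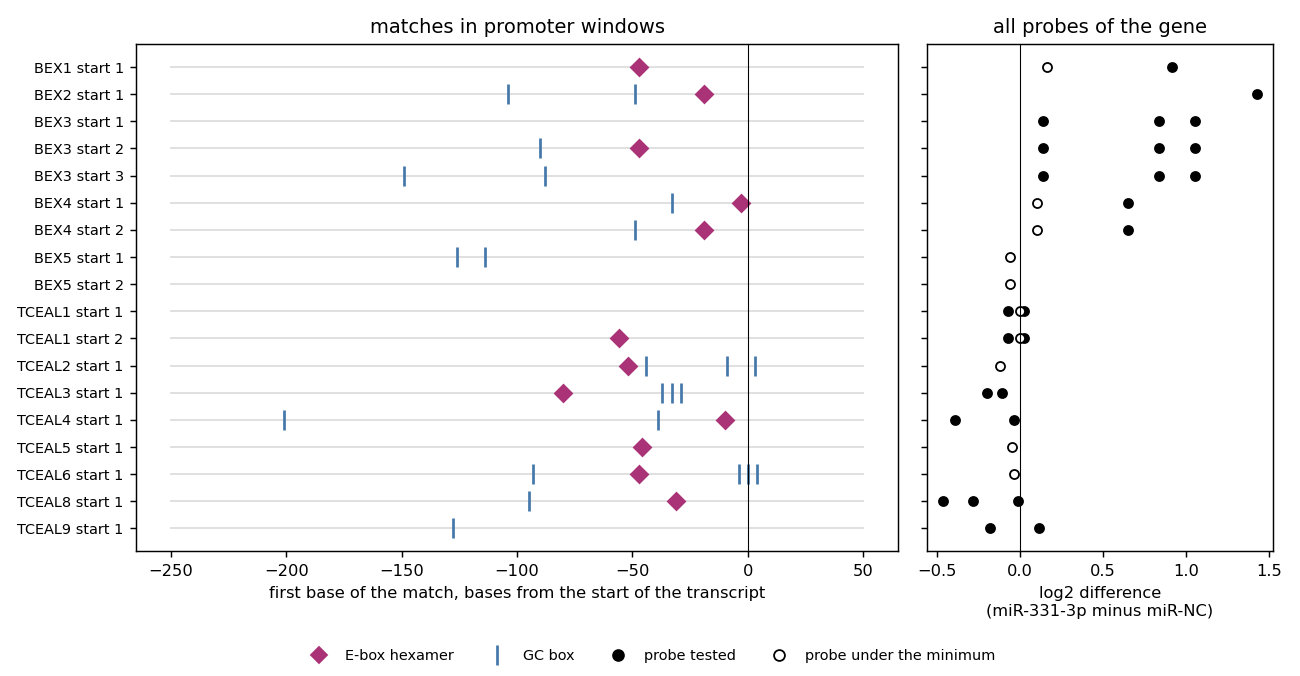
Left, positions of the E-box hexamer (purple diamonds) and the GC box (blue bars) in promoter windows of the BEX and TCEAL genes, in bases from the start of the transcript. Right, the log2 differences of all probes of the same gene, repeated for each start, filled where tested. E-boxes stand 10 to 80 bases before the start in TCEAL genes and 3 to 47 bases before it in BEX1 to BEX4. Probes of the TCEAL genes that have an E-box differ by -0.47 to 0.027.

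Along the chromosome, BEX1, BEX4, BEX2 and BEX3 lie in this order with NXF3, TCEAL8, TCEAL5, TCEAL7 and TCEAL9 between them, and BEX5 lies apart from them, beyond the GPRASP genes. The 10 protein-coding genes nearest to either side of each BEX gene gave 36 neighbours, 29 with a probe and 17 with a tested probe, and these include genes of the TCEAL, ARMCX and GPRASP families. Of their 29 tested probes, 1 was higher and 2 were lower from limma (4.30% and 3.66% over all tested probes), with 8 at an unadjusted p under 0.05 (22.1% over all) and a median difference of -0.084. GLA, which encodes a lysosomal galactosidase, was higher by 0.35 (standard error 0.088, adjusted p = 0.033 from limma). This call was lost with no minimum, without replicate A or C of miR-NC, without replicate B or C of miR-331-3p, and with the methods' t-test, over a range of adjusted p from 0.023 to 0.19.

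Beside TCEAL4 the other lower neighbour was HNRNPH2, which encodes an RNA-binding protein, at -0.41 (standard error 0.11, adjusted p = 0.039 from limma) on 1 probe and -0.17 (adjusted p = 0.24 from limma) on the other. The first lost its call with no minimum, without replicate A or B of miR-NC, without replicate A or B of miR-331-3p, and with the methods' t-test, over a range of adjusted p from 0.0069 to 0.26. Directly between BEX genes, NXF3, TCEAL5 and TCEAL7 were under the minimum, with differences of -0.028 for NXF3, -0.046 for TCEAL5, and 0.014 and 0.0061 for TCEAL7. The ARMCX and GPRASP genes, a group of X-linked armadillo-repeat proteins and their relatives, had 0 of 8 tested probes called by limma (7.96% over all), 1 at an unadjusted p under 0.05 (22.1% over all), and 0 with the methods' t-test at either level. Their differences ran from -0.27 for ARMCX3 to 0.034 for GPRASP2, with a median of -0.088.

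**Figure D4:**
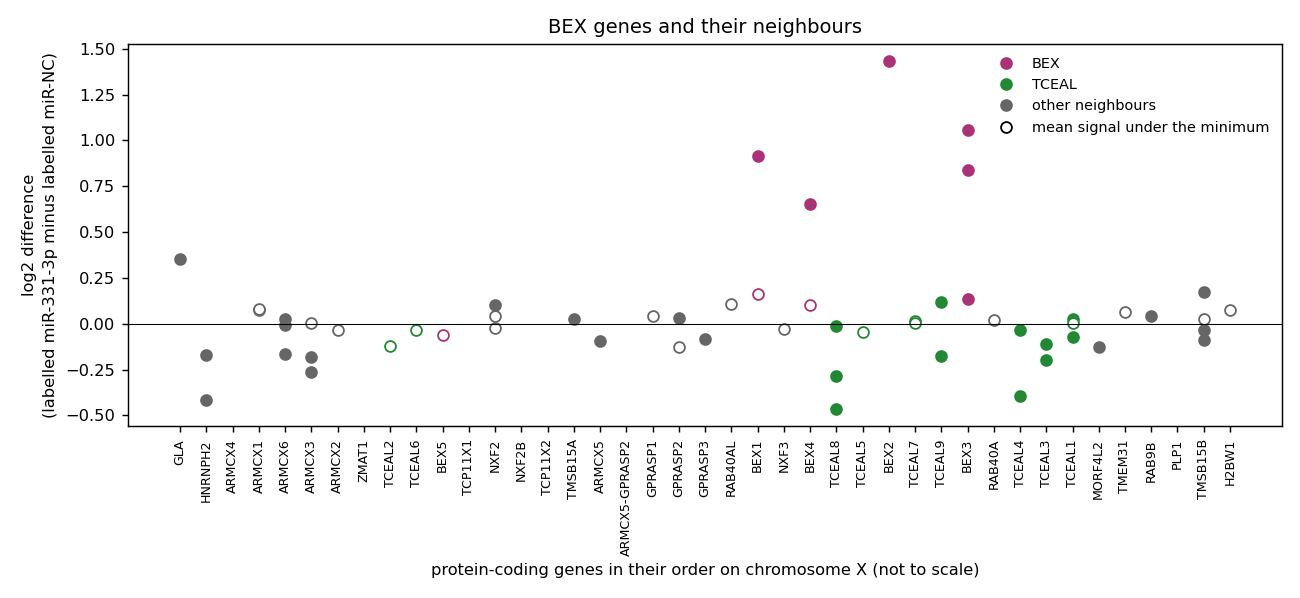
Log2 difference between the labelled groups (vertical axis) of every named probe of the BEX genes (purple), TCEAL genes (green) and other protein-coding neighbours (grey), set out in gene order along chromosome X (horizontal axis, not to scale), with open circles for probes under the minimum. Among the neighbours the highest value is 0.35 (GLA) and the lowest -0.47 (TCEAL8), while the bright probes of BEX1 to BEX4 stand at 0.65 to 1.43.

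Partners of BEX proteins were examined next. In signaling of the p75 receptor, 16 of 26 listed genes had a tested probe, and limma called 0 of 23 probes (7.96% over all), 6 having an unadjusted p under 0.05 (22.1% over all). The methods' t-test gave 2 higher and 0 lower unadjusted, and 0 adjusted. The receptor itself, NGFR, was under the minimum, at a mean of 6.80 in miR-NC and 6.82 in miR-331-3p, as were NTRK2, NTRK3 and LINGO1. Of the brightest, MAGED1, another binder of p75, differed by -0.28 (adjusted p = 0.093 from limma) and -0.068 (0.80), SQSTM1, a scaffold for TRAF6, by 0.39 (0.065), RHOA, a small GTPase that p75 regulates, by -0.064 (0.73), and NCSTN, a subunit of gamma-secretase, by -0.028 (0.87). The median was 0.025.

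For the ligase that BEX proteins bind, all 10 genes of the CUL2-FEM1B list were tested. Of 13 probes limma called 0 (7.96% over all), with 2 at an unadjusted p under 0.05 (22.1% over all), while the methods' t-test gave 2 higher and 1 lower unadjusted and 0 adjusted. FEM1B, the receptor subunit, differed by 0.086 (adjusted p = 0.53 from limma) on a probe near the minimum (mean 7.16), and its substrate FNIP1 by -0.14 (0.37). The brightest were the adaptors ELOB, at -0.0100 (0.96) and -0.026 (0.90), and ELOC, at 0.050 (0.81) and -0.25 (0.074), RBX1, the RING subunit, at 0.26 (0.074), and FEM1A, a relative of FEM1B, at 0.0074 (0.97). The list had a median of -0.0100.

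Among 11 other partners, 8 had a probe and 4 were tested, with 8 probes, of which 0 were higher and 1 was lower (4.30% and 3.66% over all tested probes). That probe belonged to DIABLO, a mitochondrial activator of apoptosis that binds BEX3, and read 10.01, 10.14 and 9.99 in miR-NC and 9.72, 9.66 and 9.80 in miR-331-3p replicates A, B and C. It was lower by 0.32 (log2 difference -0.32, standard error 0.078, adjusted p = 0.029 from limma). The call ended on the omission of each array except replicate C of miR-331-3p, and with the methods' t-test, over a range of adjusted p from 0.010 to 0.13. The other DIABLO probes differed by -0.29 (adjusted p = 0.17 from limma) and -0.080 (0.72). LMO4, a transcription cofactor, differed by -0.022 and -0.031, PLK1, a mitotic kinase, by -0.065, and SIRT2 by -0.011 and 0.028, each at an adjusted p of 0.68 or more. LMO2 and OMP, partners of BEX2 and of mouse Bex1, were under the minimum.

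BEX genes are best known from neurons, so neuronal and neuroendocrine markers are given beside them. Their summed linear level over 11 genes, with the brightest probe for each gene, was 2013 to 2158 in miR-NC and 2176 to 2368 in miR-331-3p. TUBB3, neuronal beta-tubulin, alone gave 518 to 680 and 730 to 839 of this, and the sum of the other 10 genes, taken after the values had been seen, overlapped at 1462 to 1494 and 1445 to 1536. Of these 10 genes 6 stayed under the minimum, so array background fills part of that sum and its overlap says little. The 8 luminal markers, with TMPRSS2 and KLK2 among them, summed to 18107 to 18982 and 20179 to 21060. Over 9 basal, stromal, endothelial and blood markers, 6 of them under the minimum, the sum was 1206 to 1247 and 1186 to 1216. Among 6 tested neuronal probes 1 was called (4.30% higher over all tested probes), that of TUBB3, higher by 0.44 (standard error 0.10, adjusted p = 0.027 from limma). The others, not called, differed by 0.17 for INSM1, 0.10 and -0.089 for NCAM1, 0.068 for STMN2 and -0.052 for ENO2. CHGA and SYP stayed under the minimum with differences of 0.043 and 0.0052. The TUBB3 call was lost with no minimum, without replicate B or C of miR-NC or replicate B of miR-331-3p, and with the methods' t-test, over a range of adjusted p from 0.010 to 0.22. The part of these markers in the BEX differences was not tested.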

How the data were processed

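LNCaP cells transfected with miR-NC or miR-331-3p were profiled on 6 Illumina Human-6 v3 arrays, 3 for each label. The authors deposited log2 values: raw intensities had been background corrected and variance stabilized in lumi, then quantile normalized in Partek Genomics Suite. A second table of raw signals has 12 columns that no name ties to a sample, and they were not used. Symbols came from the platform annotation, updated by gene identifier to GRCh38.p14 names for 27540 of 27577 probes with 1 symbol. The 13 probes with several symbols and the 21212 without one were not searched for further BEX probes.

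The BEX family, the lists of related genes and the minimum of 7 were chosen with earlier results of these data known. BEX values are described per probe and array. Other probes were tested two-sided with limma 3.58.1 (lmFit, eBayes, no block) in R 4.3.3, with Benjamini-Hochberg adjustment over 16752 probes and a threshold of 0.05. The test was tried on simulated data first. Named were all BEX probes, in each list every called gene and up to 4 with the brightest probes, the 5 genes with the most similar pattern, and RRBP1. FEM1B, FNIP1, NGFR, the genes lying between BEX genes and other genes under the minimum were named after their values were seen, for their known tie to BEX proteins or their position. Alternatives were cyclic loess, equal medians, array weights, other minimums, an intensity trend in the variance, a replicate block, the omission of each array and the brightest probe per gene. The methods' t-test was added after seeing the data, with a Benjamini-Hochberg adjustment that the paper does not mention. Promoter windows and the microRNA were read from RefSeq tables with Python 3.11.15 and pandas 2.3.3, windows were aligned globally with Biopython 1.88, and figures were drawn with matplotlib 3.10.9. The number of arrays limits the precision.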

Additional observations from a re-analysis of the deposited data

How the results depend on the processing

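The difference of every BEX probe moved by less than the spread between replicates under cyclic loess, equal medians and array weights. Equal medians and cyclic loess could move values that were already quantile normalized only little, so these settings say little about stability. The replicate block cannot move these differences in a balanced design, and omitting 1 array of 3 can move them little, so neither bears on their stability. Raw signals were not used as an alternative, because their columns could not be tied to samples. Over all tested probes the count higher, 720, ran from 363 to 765 and the count lower, 613, from 263 to 697 when each array was left out, and they fell to 115 and 49 with the methods' t-test (1545 and 1459 at its unadjusted threshold). The replicate block gave 742 and 670, and array weights gave 913 and 859. Same-lettered arrays did not deviate together (correlations of -0.043, 0.017 and 0.22 for A, B and C, with 2 of 6 arrays closest to their own letter), so letters were not taken as pairs.

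Counts in the lists are small and several moved. Lower TCEAL probes were 2 with array weights, a minimum of 7.5, an intensity trend or the replicate block, 0 with the methods' t-test and 0 to 2 when arrays were left out, against 1. For the p75 list, 1 probe was higher with array weights and 0 to 1 when arrays were left out, and 1 was lower with the replicate block, against 0. Lower ARMCX and GPRASP probes were 0 to 1 when arrays were left out. The lower DIABLO probe among other partners became 0 with the methods' t-test or the brightest probe per gene, and 0 to 1 when arrays were left out. Neighbours higher were 0 with no minimum or with the methods' t-test and 0 to 1 when arrays were left out, against 1. Neighbours lower were 3 with array weights, a minimum of 7.5, an intensity trend or the replicate block, against 2. They were 1 with no minimum, 0 with the methods' t-test and 0 to 3 when arrays were left out. These counts for the methods' t-test are of adjusted p. At its unadjusted threshold it gave 0 higher and 2 lower TCEAL probes. For other partners it gave 0 and 1, and for neighbours 1 and 3. Counts of adjusted calls for the CUL2-FEM1B list stayed at 0. The cause was not tested. Signals near 7 sit close to the array background, which limits BEX5, the dim probes of BEX1 and BEX4, and partners and markers such as FEM1B, INSM1 and NCAM1.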
